A study of Mus musculus with 48 samples.

Results

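Keratins 8, 18, 7, 19 and 20 are the keratins of simple, one-layered epithelia, and their transcripts were followed here in mouse kidneys after most of the kidney mass had been removed. The 5 genes Krt8, Krt18, Krt7, Krt19 and Krt20 are 5 of the 13174 genes measured, each read from the brightest probe set that names that gene alone, by its mean over the 48 arrays. All 5 probe sets passed the filter on low values, and each lay above it on all 48 arrays. Subtotal nephrectomy (Nx), which leaves a kidney remnant, was compared with a sham operation in FVB mice, a strain described as prone to kidney lesions after this surgery, and in C57BL/6 mice (B6), described as not prone. Animals were 9 weeks old at surgery, and whole-kidney RNA was taken 2, 28 or 53 days later. The 12 groups were FVB Nx, FVB sham, B6 Nx and B6 sham at each of the 3 days, with 4 mice and 4 arrays in each group. No allele, transgene, agent or treatment besides surgery is named for any group.

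Keratins are the intermediate filament proteins of epithelial cells and form obligate pairs of a type II and a type I chain. Krt8 and Krt7 are type II chains, and Krt18, Krt19 and Krt20 are type I chains. Krt8 with Krt18 is the pair of simple epithelia such as the renal tubule, and its genes are known to be induced when tubules are injured. Krt7 and Krt19 are known from collecting ducts, urothelium and the ducts of glands, and Krt20 from the surface cells of the urothelium and the intestinal epithelium. The filaments are tied to desmosomes and hemidesmosomes by linker proteins such as desmoplakin and plectin.

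Values are log2 intensities as the authors deposited them, and the levels of different probe sets do not show which gene has more transcript. Effects are differences of log2 means, Nx minus sham, with the standard error (SE) of 1 limma fit over all 48 arrays. A gene was called changed at an adjusted p below 0.05 over all 13174 genes. With whole-kidney RNA, fewer cells of a type and less RNA per cell cannot be told apart, and the same holds for more.

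Nephron markers passed the filter on low values, as 13174 of 18193 genes did. They were 6 of 6 proximal tubule genes, 4 of 4 of the thick ascending limb, 3 of 3 of the distal convoluted tubule and 7 of 7 of collecting duct principal cells. Of intercalated cells 4 of 5 passed and of podocytes 3 of 4, and the gene missing from each had no single-gene probe set. Transcripts of pancreatic acini, which do not belong to kidney, averaged over 5 (log2) in 16 of 24 Nx kidneys and 2 of 24 sham kidneys. The Gapdh difference between 3 prime and 5 prime probes, a measure of RNA integrity, had group means of 0.162 to 0.307 in Nx kidneys and 0.092 to 0.240 in sham kidneys, and the Nx mean was the higher in each of the 6 pairs of groups. For Actb, also a 3 prime to 5 prime control, the group means were 1.906 to 2.353 in Nx kidneys and 2.174 to 2.411 in sham kidneys, with the higher mean in Nx at B6 day 53 alone. Whether RNA quality has a part in the keratin effects was not tested. Array medians ran from 3.168 to 3.441.

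Which of the keratins changed after nephrectomy, and when? At day 2 the Nx level of 4 of 5 keratins was higher than sham in both strains, and Krt7 did not pass. At day 28 Krt19 passed in FVB, and Krt19, Krt18, Krt20 and Krt8 passed in B6. At day 53 all 5 keratins were higher in FVB, against 3 in B6, namely Krt19, Krt18 and Krt8. By limma 0 of 5 keratins were lower in Nx kidneys in any of the 6 comparisons, at an unadjusted p under 0.05 as well.

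These counts stand against the share of all genes called higher in the same comparison. In FVB, 4 of 5 keratins at day 2 stood beside 24.8% of all genes, 1 of 5 at day 28 beside 7.35%, and 5 of 5 at day 53 beside 25.9%. In B6, 4 of 5 at day 2 stood beside 20.2%, 4 of 5 at day 28 beside 9.85%, and 3 of 5 at day 53 beside 8.03%. The shares of all genes called lower were 30%, 8.81% and 27.8% at days 2, 28 and 53 in FVB and 24.4%, 9.14% and 6.68% in B6. The median effect over the 5 keratins was 2.10, 0.21 and 1.58 on the log2 scale at days 2, 28 and 53 in FVB, while the median over all genes lay at -0.03, -0.02 and -0.01. In B6 the keratin median was 1.90, 0.68 and 0.54, against -0.02, -0.02 and -0.01 over all genes. Counted by overlap, the 4 Nx values lay above all 4 sham values for 4, 1 and 5 of 5 keratins at days 2, 28 and 53 in FVB, beside 20.2%, 9.2% and 22.2% of all genes. In B6 they did so for 5, 4 and 2 of 5, beside 18.2%, 9.86% and 11.3%.

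**Figure D1:**
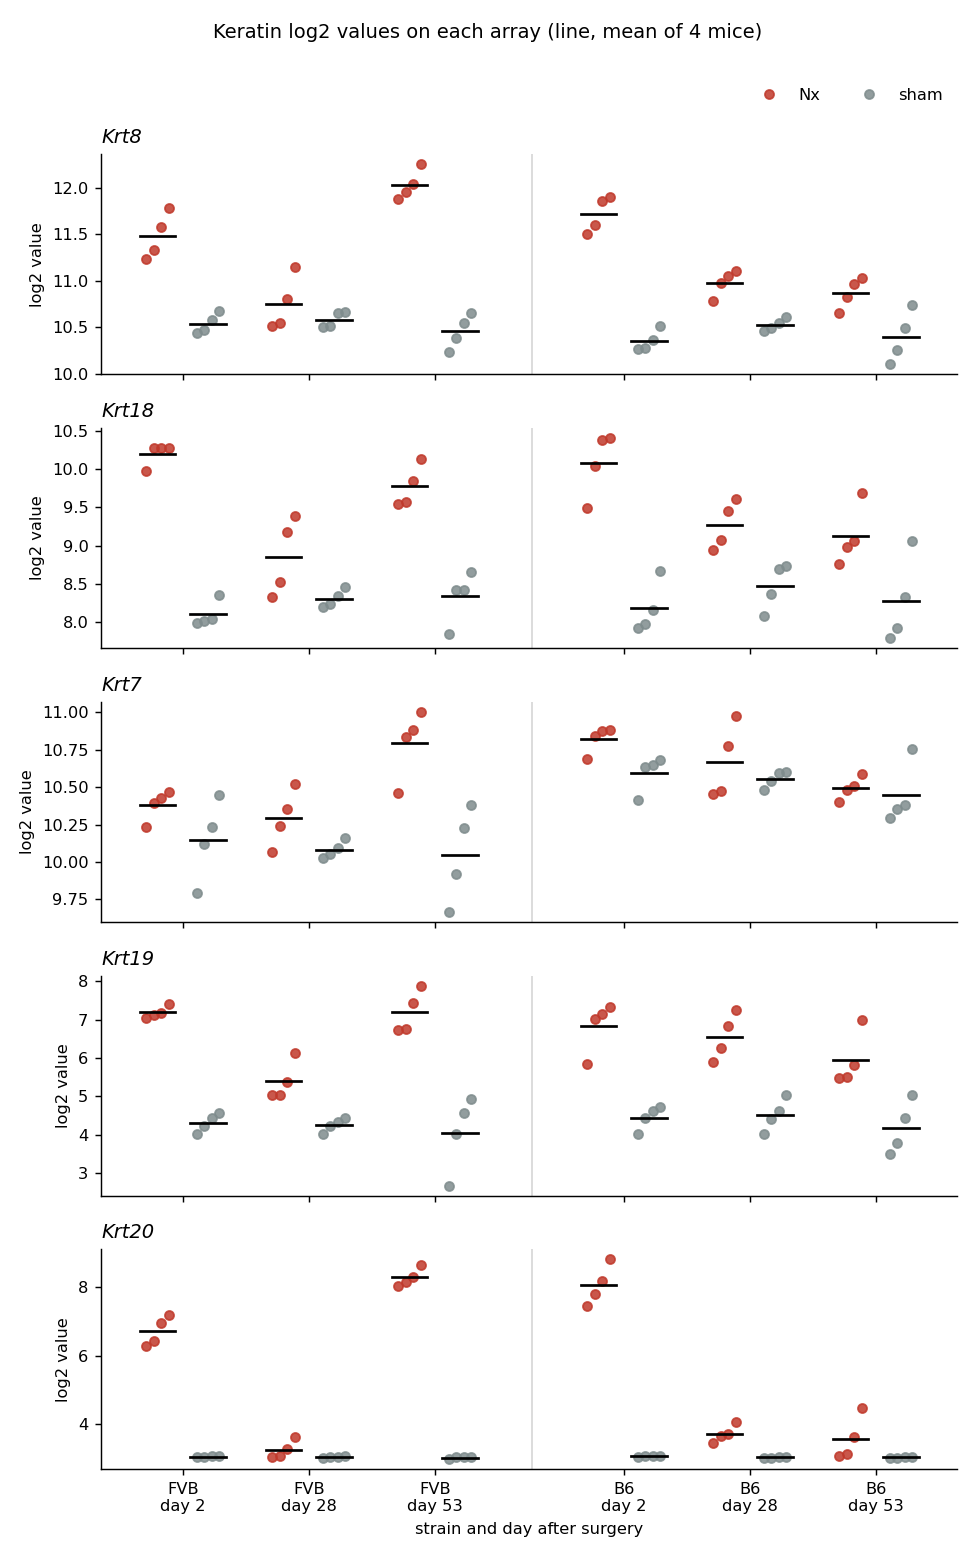
Log2 value of each keratin (vertical axis, own scale per gene) on each array, by strain and day after surgery, with Nx in red left of sham in grey and a line at the mean of 4 mice. Krt20 stays between 2.99 and 3.10 in all 24 sham kidneys, while the Krt7 effect is at most 0.24 outside FVB at day 53.

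Krt8, the type II chain that pairs with Krt18, had its largest effect in FVB at day 53. It was read from probe set 1423691_x_at, and its gene lies at chr15:101996711-102004342 (GRCm38.p6, as are all positions here). At day 2 the FVB Nx kidneys had log2 values of 11.57, 11.33, 11.24 and 11.79, against 10.47, 10.44, 10.57 and 10.67 in FVB sham kidneys. At day 28 the FVB Nx values of 10.55, 10.81, 11.15 and 10.51 overlapped the sham values of 10.51, 10.65, 10.50 and 10.66. At day 53 FVB Nx kidneys had 12.04, 11.88, 12.25 and 11.96, against 10.23, 10.38, 10.55 and 10.65 in sham kidneys. All 4 Nx kidneys thus lay above all sham kidneys at days 2 and 53, and 2 of 4 did so at day 28. The Krt8 effect in FVB was 0.94 at day 2 (SE 0.13, 1.93-fold, adjusted p = 4.87e-08), 0.17 at day 28 (adjusted p = 0.409) and 1.58 at day 53 (2.99-fold, adjusted p = 2.88e-13).

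In B6 kidneys Krt8 was high at day 2 and closer to sham later. The B6 Nx values at day 2 were 11.85, 11.90, 11.51 and 11.60, against 10.27, 10.27, 10.36 and 10.51 in B6 sham kidneys. At day 28 they were 11.05, 10.97, 11.10 and 10.79, against 10.46, 10.61, 10.49 and 10.55. At day 53 they were 10.82, 10.66, 10.96 and 11.03, against 10.10, 10.25, 10.49 and 10.74. Nx and sham values did not overlap at days 2 and 28, and 3 of 4 Nx values lay above the sham values at day 53. The effect was 1.36 at day 2 (SE 0.13, 2.57-fold, adjusted p = 3.73e-11), 0.45 at day 28 (adjusted p = 0.00959) and 0.47 at day 53 (adjusted p = 0.00807). The day 53 call in B6 was lost without sham mouse 1 (0.37, adjusted p = 0.053). The letters _x_ in the name of the Krt8 probe set, 1423691_x_at, mark probes that may also bind other transcripts. The probe sets 1420647_a_at and 1435989_x_at, also of Krt8, gave 1.52 and 1.48 in FVB at day 53 and 1.33 and 1.19 in B6 at day 2, and the same 5 of 6 surgery comparisons passed with each.

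Krt18, the type I partner of Krt8 (probe set 1448169_at, gene at chr15:102028216-102032026), had its largest effects at day 2 in both strains. In FVB at day 2 its log2 values were 10.28, 9.97, 10.27 and 10.27 in Nx kidneys, against 7.99, 8.02, 8.36 and 8.04 in sham kidneys. In B6 at day 2 they were 10.38, 10.04, 9.49 and 10.41 in Nx kidneys, against 8.67, 7.93, 8.16 and 7.97 in sham kidneys. Neither pair of groups overlapped. The effect was 2.10 in FVB (SE 0.24, 4.28-fold, adjusted p = 1.82e-09) and 1.90 in B6 (SE 0.24, 3.72-fold, adjusted p = 3.47e-08).

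At day 53 Krt18 reached 9.85, 9.55, 10.13 and 9.58 in FVB Nx kidneys, against 7.85, 8.43, 8.43 and 8.65 in FVB sham kidneys. The corresponding B6 values were 8.99, 8.77, 9.70 and 9.07 in Nx kidneys, against 8.33, 7.93, 7.80 and 9.07 in sham kidneys. FVB groups stood apart at day 53, while in B6 only Nx mouse 4 lay above the highest sham value. The effect was 1.44 in FVB (2.71-fold, adjusted p = 3.16e-06) and 0.85 in B6 (1.80-fold, adjusted p = 0.0126). At day 28 Krt18 had 8.33 to 9.38 in FVB Nx kidneys, against 8.20 to 8.46 in sham kidneys (0.54, adjusted p = 0.125), and it passed there without Nx mouse 8 (0.72, adjusted p = 0.0477). In B6 it had 8.94 to 9.61 in Nx kidneys, against 8.08 to 8.73 in sham kidneys (0.80, adjusted p = 0.0164). The B6 call at day 28 was lost without Nx mouse 5 (adjusted p = 0.0608) or sham mouse 5 (adjusted p = 0.0796). The B6 call at day 53 was lost without Nx mouse 4 (adjusted p = 0.0783), sham mouse 3 (adjusted p = 0.0595) or sham mouse 5 (adjusted p = 0.076).

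Krt7, the type II chain of ducts and urothelium (probe set 1423952_a_at, gene at chr15:101412403-101427806), passed in 1 of the 6 surgery comparisons and differed between the strains in sham kidneys. Over the 12 sham kidneys of each strain, it was lower in FVB than in B6 by a log2 difference of -0.44 (SE 0.07, adjusted p = 8.81e-06), and it was the only 1 of the 5 keratins to pass there, beside 15.6% of all genes called lower. At day 53 its values were 10.83, 10.88, 11.00 and 10.46 in FVB Nx kidneys, against 9.67, 10.23, 9.92 and 10.38 in FVB sham kidneys. These groups did not overlap, and the effect was 0.75 (SE 0.13, 1.68-fold, adjusted p = 5.5e-06). In the other 5 surgery comparisons the Krt7 effect lay between 0.05 (B6 at day 53) and 0.24 (FVB at day 2), and none passed. At day 2 it was 0.24 in FVB (95% CI -0.03 to 0.50, adjusted p = 0.123) and 0.23 in B6 (95% CI -0.04 to 0.49, adjusted p = 0.159). In B6 at day 2 the Nx values of 10.69 to 10.88 nonetheless all lay above the sham values of 10.41 to 10.68. The FVB value at day 2 passed without sham mouse 4 (0.33, adjusted p = 0.0361), and the B6 value passed when only the arrays of that comparison were fitted (adjusted p = 0.0423).

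Krt19, the smallest type I keratin, which lacks the tail domain of other keratins (probe set 1417156_at, gene at chr11:100140810-100145926), rose after Nx in all 6 comparisons. Its FVB values at day 2 were 7.05, 7.12, 7.18 and 7.40 in Nx kidneys, against 4.22, 4.01, 4.57 and 4.43 in sham kidneys. At day 28 they were 5.37, 5.03, 6.14 and 5.03 in FVB Nx kidneys, against 4.23, 4.33, 4.02 and 4.43. At day 53 they were 6.73, 7.43, 7.89 and 6.76 in FVB Nx kidneys, against 2.67, 4.01, 4.56 and 4.93. The lowest sham value of all, 2.67, belonged to FVB sham mouse 1 at day 53. The FVB effect was 2.88 at day 2 (SE 0.38, 7.37-fold, adjusted p = 4.02e-08), 1.14 at day 28 (2.20-fold, adjusted p = 0.0364) and 3.16 at day 53 (8.94-fold, adjusted p = 5.23e-09).

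In B6 kidneys Krt19 stayed above sham at all 3 days. The B6 Nx values were 7.15, 7.02, 5.84 and 7.32 at day 2, against 4.72, 4.01, 4.43 and 4.61 in sham kidneys. At day 28 they were 6.26, 6.84, 7.24 and 5.90 in B6 Nx kidneys, against 4.01, 5.03, 4.60 and 4.42. At day 53 they were 5.50, 5.48, 6.98 and 5.81 in B6 Nx kidneys, against 3.77, 3.50, 4.42 and 5.03. Krt19 was the one keratin whose 4 Nx values lay above its 4 sham values in every strain and at every day, as did 4.13% of all genes. The B6 effect was 2.39 at day 2 (SE 0.38, 5.24-fold, adjusted p = 2.67e-06), 2.04 at day 28 (4.12-fold, adjusted p = 1.4e-04) and 1.76 at day 53 (3.39-fold, adjusted p = 0.00106). The FVB call at day 28 was the least stable of the 6: it was lost without any one of Nx mice 2 and 7 or sham mice 1, 2, 3 and 4, with adjusted p of 0.0509 to 0.165 and effects of 0.89 to 1.19. It was also lost under quantile normalisation (0.98, adjusted p = 0.0652) and with no filter on low values (1.14, adjusted p = 0.0717).

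Krt20, the type I keratin known from umbrella cells of the urothelium and from the gut surface (probe set 1426284_at, gene at chr11:99428385-99438153), had the widest range of the 5. In sham kidneys its 24 values lay between 2.99 and 3.10 with an SD of 0.0251, and 12 of them were 3.05 to the last digit given. In all, 21 of 24 sham values recurred exactly on another sham array, and 479 of 13174 genes had as many or more such arrays. At the looser cut of 12 or more sham arrays, 15.5% of genes did so. Whether this plateau holds any transcript signal cannot be read from the values, so folds of Krt20 over sham are given as at least that size, and its log2 effects are differences of the values as listed.

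At day 2 the FVB Nx kidneys had Krt20 values of 7.18, 6.96, 6.43 and 6.27, against 3.09, 3.05, 3.05 and 3.09 in sham kidneys. At day 28 the FVB Nx values were 3.30, 3.09, 3.63 and 3.05, against 3.03, 3.05, 3.05 and 3.08. At day 53 the FVB Nx values were 8.15, 8.65, 8.28 and 8.04, against 3.05, 2.99, 3.05 and 3.05. Krt20 in FVB was thus far above the plateau at days 2 and 53, and at day 28 it was at or just above the plateau in the same strain. The effect was 3.64 at day 2 (SE 0.21, at least 12.5-fold, adjusted p = 2.96e-16), 0.21 at day 28 (adjusted p = 0.581) and 5.25 at day 53 (at least 38.0-fold, adjusted p = 2.51e-21).

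The B6 kidneys showed the high Krt20 level at day 2 and not later. At day 2 the B6 Nx values were 8.81, 7.44, 7.79 and 8.18, against 3.09, 3.05, 3.09 and 3.10 in sham kidneys. At day 28 the B6 Nx values were 3.45, 4.07, 3.66 and 3.71, against 3.03, 3.05, 3.03 and 3.05. At day 53 the B6 Nx values were 3.62, 3.15, 4.48 and 3.09, against 3.05, 3.03, 3.05 and 3.03. All B6 Nx values lay above the sham values of their day, but by a small margin at days 28 and 53, where Nx mouse 4 of each day was the highest. The value of Nx mouse 7 at day 53, 3.09, lay on the plateau, within the range of 2.99 to 3.10 of all 24 sham kidneys. The effect was 4.98 at day 2 (SE 0.21, at least 31.5-fold, adjusted p = 1.15e-20), 0.68 at day 28 (at least 1.61-fold, adjusted p = 0.0206) and 0.54 at day 53 (adjusted p = 0.0828). Without Nx mouse 4, the day 28 call was lost (0.57, adjusted p = 0.0855). The day 53 value passed without Nx mouse 2 (0.69, adjusted p = 0.0345) or Nx mouse 7 (0.71, adjusted p = 0.0298) and was 0.25 at its lowest, with adjusted p = 0.486.

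Ordered by group mean, Krt20 ran from 8.28 ± 0.26 in FVB Nx kidneys at day 53 through 8.06 ± 0.58 in B6 Nx kidneys at day 2 to 6.71 ± 0.43 in FVB Nx kidneys at day 2 (SD, n = 4 each). B6 Nx kidneys at day 28 followed at 3.72 ± 0.26, B6 Nx kidneys at day 53 at 3.58 ± 0.64 and FVB Nx kidneys at day 28 at 3.27 ± 0.27, and the 6 sham groups came last, at 3.03 to 3.08. Only 2 of the 11 steps between neighbours in that order were free of overlap, those on either side of FVB Nx kidneys at day 2. For Krt8, 1 of 11 steps was free of overlap, between FVB Nx kidneys at day 2 (11.48 ± 0.25) and B6 Nx kidneys at day 28 (10.98 ± 0.14). For Krt18, Krt7 and Krt19 neighbouring groups overlapped at all 11 steps.

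The promoters of Krt20 and Krt7 are shown because these genes stand at the 2 ends of the response, the widest and the narrowest. Each run is the 250 bases before the gene's start in the RefSeq annotation of GRCm38.p6, 5′ to 3′ on the gene's own strand, and promoters of 4 of the 5 keratins were matched, all but that of Krt19. Capitals mark matches to 4 short motifs searched on both strands: the TATA box TATAAA, the TEAD motif GGAATG, the AP-1 motif TGANTCA and the Sp1 motif GGGCGG, or their reverse complements. The Krt20 run lies at chr11:99438154-99438403 on the minus strand and that of Krt7 at chr15:101412153-101412402 on the plus strand.
Krt20: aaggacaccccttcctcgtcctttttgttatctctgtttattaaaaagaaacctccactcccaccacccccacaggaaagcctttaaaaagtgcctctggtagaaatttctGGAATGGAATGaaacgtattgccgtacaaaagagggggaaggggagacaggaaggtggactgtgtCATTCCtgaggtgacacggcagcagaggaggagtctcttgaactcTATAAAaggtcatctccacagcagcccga
Krt7: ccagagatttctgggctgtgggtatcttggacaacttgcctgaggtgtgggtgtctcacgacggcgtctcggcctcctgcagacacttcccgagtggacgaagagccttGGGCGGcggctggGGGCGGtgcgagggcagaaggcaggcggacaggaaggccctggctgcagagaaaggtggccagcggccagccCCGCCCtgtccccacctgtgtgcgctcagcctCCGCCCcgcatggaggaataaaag
In Krt20 a TATA box begins 29 bases before the start, and 3 TEAD motifs begin 139, 134 and 74 bases before it, the first pair sharing 1 base and the last on the opposite strand. Krt7 holds 4 Sp1 motifs and none of the other 3 kinds, and the windows of Krt8 and Krt18 hold none of the 4. Of 32851 promoter windows of the same length, 12.4% hold TATAAA, 12.6% GGAATG, 6.7% TGANTCA and 32.7% GGGCGG. The motifs were chosen with the sequences in view, so the matches describe these letters and nothing more.

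**Figure D2:**
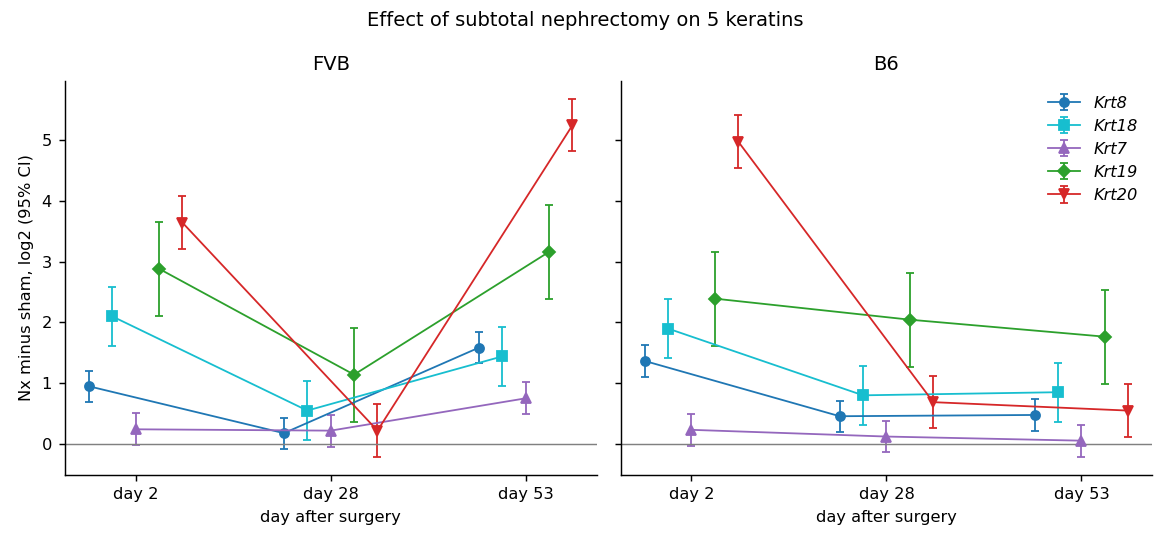
Effect of subtotal nephrectomy on each keratin (Nx minus sham, log2, vertical axis) at days 2, 28 and 53 after surgery, with FVB on the left and B6 on the right and bars for the 95% confidence interval. In FVB the effect on Krt20 is 3.64, 0.21 and 5.25 over the 3 days, while in B6 it is 4.98, 0.68 and 0.54.

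Between days 2 and 28 the surgery effect shrank for most of the keratins in both strains. In FVB it was smaller at day 28 for 4 of 5 keratins, beside 12.5% of all genes, with changes of -3.43 for Krt20 (SE 0.30, adjusted p = 1.7e-10), -1.75 for Krt19 (adjusted p = 0.0151), -1.55 for Krt18 (adjusted p = 7.9e-04) and -0.77 for Krt8 (adjusted p = 0.0014). In B6 it was smaller for 3 of 5, beside 4.02% of all genes. These were Krt20 (-4.29, SE 0.30, adjusted p = 2.98e-13), Krt18 (-1.10, adjusted p = 0.0347) and Krt8 (-0.91, adjusted p = 5.91e-04). Krt19 in B6 changed by -0.35 (95% CI -1.44 to 0.75, adjusted p = 0.81). The B6 call for Krt18 was lost when any one of 8 of 16 mice was left out, with adjusted p up to 0.0891. The strains' changes between days 2 and 28 were not told apart by limma for any of the 5 keratins, beside 0.63% of all genes called in either direction, and Krt20 alone had an unadjusted p under 0.05 (0.87, adjusted p = 0.418).

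From day 28 to day 53 the strains parted. In FVB the effect grew for 5 of 5 keratins, beside 13.7% of all genes. Krt20 grew by 5.03 (SE 0.30, adjusted p = 2.24e-15) as listed, with Nx values of day 28 at or near the plateau, and Krt19 by 2.02 (adjusted p = 0.00455). Krt8 grew by 1.41 (adjusted p = 2.71e-07), Krt18 by 0.89 (adjusted p = 0.0485) and Krt7 by 0.53 (adjusted p = 0.0271). The Krt18 call was lost without any one of 11 of 16 mice (adjusted p up to 0.133) and the Krt7 call without any one of FVB Nx mouse 8 of day 28, Nx mouse 8 of day 53, sham mouse 4 of day 28 and sham mice 1 and 5 of day 53 (adjusted p up to 0.0956). In B6, 0 of 5 keratins changed by limma between those days and 0 also had an unadjusted p under 0.05, as 405 genes did. No gene passed the adjusted threshold there (0% of 13174). The B6 changes ran from -0.28 for Krt19 (95% CI -1.38 to 0.82) to 0.05 for Krt18 (95% CI -0.64 to 0.74).

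Days 53 and 2 were also set against each other. In FVB the effect at day 53 was larger than at day 2 for 2 of 5 keratins, beside 6.56% of all genes, namely Krt20 (1.61, SE 0.30, adjusted p = 2.49e-04) and Krt8 (0.64, SE 0.18, adjusted p = 0.0141). For Krt18 the FVB difference of day 53 from day 2 was -0.66 (95% CI -1.35 to 0.03, adjusted p = 0.237), and for Krt7 it was 0.51 (adjusted p = 0.0626). That Krt7 value passed with the urothelial covariate (0.63, adjusted p = 0.00418), under quantile normalisation (adjusted p = 0.0485), with the replicate block (adjusted p = 0.0499), and without any one of FVB Nx mouse 10 of day 53, FVB sham mouse 5 of day 2 and FVB sham mice 3 and 6 of day 53 (adjusted p of 0.017 to 0.0454). In B6 the effect at day 53 was smaller than at day 2 for 3 of 5 keratins, beside 5.78% of all genes: Krt20 (-4.43, adjusted p = 1.05e-13), Krt18 (-1.05, adjusted p = 0.035) and Krt8 (-0.89, adjusted p = 5.55e-04). That B6 Krt18 call was lost without any one of 10 of 16 mice (adjusted p up to 0.115).

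The difference between strains was tested directly as the FVB effect minus the B6 effect. At day 2 Krt20 alone passed, 1 of 5 keratins beside 2.14% of all genes called lower, and its effect was lower in FVB by a log2 difference of -1.34 (SE 0.30, adjusted p = 0.00606). When only the arrays of that comparison were fitted, its adjusted p was 0.0577. Krt8 differed by -0.42 at day 2 (95% CI -0.78 to -0.05, adjusted p = 0.188). At day 28 limma called 0 of 5, beside 0.129% of all genes called in either direction, and 0 had an unadjusted p under 0.05. Krt19 differed there by -0.91 (SE 0.54) and Krt20 by -0.47 (95% CI -1.08 to 0.14).

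At day 53 the effect was larger in FVB for 4 of 5 keratins, beside 14.2% of all genes. Krt20 differed by 4.70 (SE 0.30, adjusted p = 2.2e-14), with 2 of 4 B6 Nx values (3.15 and 3.09) close to or on the plateau. Krt8 differed by 1.11 (SE 0.18, adjusted p = 1.08e-05), Krt7 by 0.70 (SE 0.18, adjusted p = 0.00334) and Krt19 by 1.40 (SE 0.54, adjusted p = 0.0478). Krt18 differed by 0.59 (95% CI -0.10 to 1.28, adjusted p = 0.207). With the urothelial mean of each array as a covariate, Krt18 passed at 0.92 (adjusted p = 0.00931) and Krt19 differed by 1.95 (adjusted p = 4.36e-04). The Krt19 call rested on single mice: it was lost without B6 Nx mouse 1, 2 or 7, FVB Nx mouse 7 or 8, B6 sham mouse 5 or 6, or FVB sham mouse 1 or 3, and without FVB sham mouse 1 the difference was 0.94 (adjusted p = 0.174). It was also lost under quantile normalisation (adjusted p = 0.0515), with array weights (adjusted p = 0.068), with no filter on low values (adjusted p = 0.0902) and when only the arrays of that comparison were fitted (adjusted p = 0.165). The growth of the effect from day 28 to day 53 also differed between the strains, for 3 of 5 keratins beside 7.04% of all genes. Here Krt20 gave 5.17 (SE 0.43, adjusted p = 7.18e-11), Krt8 1.39 (adjusted p = 2.97e-04) and Krt19 2.30 (adjusted p = 0.0361). The last of these was lost without any one of 13 of 32 mice (adjusted p up to 0.0725).

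**Figure D3:**
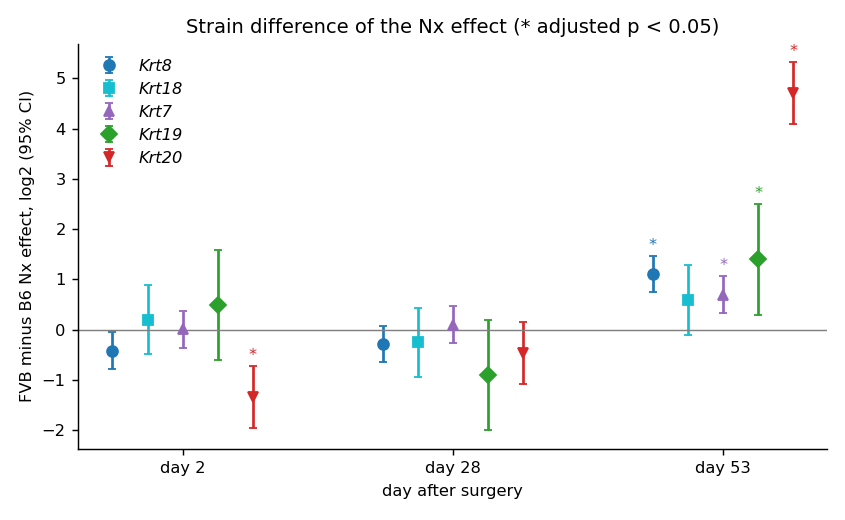
Difference of the Nx effect between strains (FVB minus B6, log2, vertical axis) for each keratin at days 2, 28 and 53, with bars for the 95% confidence interval and a star where the adjusted p was below 0.05. Krt20 lies at -1.34 at day 2 and at 4.70 at day 53, and no keratin has a star at day 28.

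Keratin levels in sham kidneys were compared between days. Between successive days, 0 of 5 keratins passed in sham kidneys of either strain, and 0 had an unadjusted p under 0.05 in any of these 4 comparisons. The shares of all genes called there, in either direction, were 1.56% and 0.00759% in FVB and 0.22% and 0.0152% in B6. The widest spread within a sham group was that of Krt19 in FVB at day 53, with an SD of 0.99.

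Did the keratins change by the same amount? For 5 pairs of keratins, the difference within each array was compared between 4 Nx and 4 sham kidneys with exact permutation tests, two-sided, in 30 tests. The smallest p such a test can give is 0.0286, and 15 of 30 tests reached it, but at 0.0571 after adjustment none passed. Krt20 exceeded Krt18 in its Nx effect by 1.54 in FVB at day 2, by 3.81 in FVB at day 53 and by 3.08 in B6 at day 2, and the 4 Nx and 4 sham differences did not overlap in any of these. At day 28 the Krt20 effect minus that of Krt19 was -0.92 in FVB and -1.36 in B6, again without overlap. Krt20 in those Nx kidneys lay near its plateau. The Krt8 effect minus that of its partner Krt18 was -1.15 in FVB at day 2, where Krt8 minus Krt18 was 0.97 to 1.51 in Nx kidneys and 2.21 to 2.63 in sham kidneys. In FVB at day 53 the same difference was 0.14, and the ranges overlapped.

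Within groups, mice with more of one keratin tended to have more of others. Deviations from the group mean were correlated over 48 arrays for 10 pairs, with permutation tests of 100000 resamples within groups. Krt18 and Krt19 were the closest pair (r = 0.76, rho = 0.73, adjusted permutation p = 7.5e-05 for r). Without the 2 arrays farthest out, r was 0.72, and it was 0.86 over Nx arrays and 0.66 over sham arrays. Krt18 with Krt7 (r = 0.68), Krt7 with Krt19 (r = 0.68), Krt8 with Krt19 (r = 0.67), Krt8 with Krt18 (r = 0.53) and Krt8 with Krt7 (r = 0.49) passed as well. For Krt20, r was 0.38 with Krt18 and 0.37 with Krt19, whose adjusted permutation p of 0.0359 and 0.0471 became 0.0681 and 0.0718 under quantile normalisation. Over Nx arrays these 2 values were 0.52 and 0.51, and over sham arrays, where Krt20 lies on its plateau, 0.03 and 0.16. With Krt8 it was 0.09 (adjusted permutation p = 0.606) and with Krt7 it was 0.17 (adjusted permutation p = 0.146). Each array is 1 mouse, and the 5 genes of an array share its RNA and its scan.

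**Figure D4:**
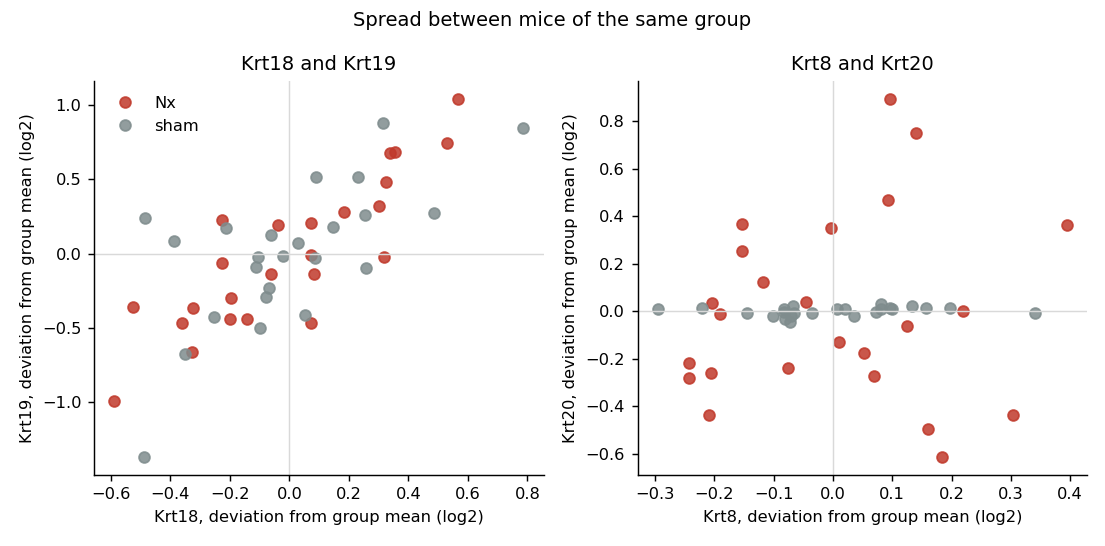
Deviation of each array from its group mean (log2) for Krt18 against Krt19 on the left and Krt8 against Krt20 on the right, Nx arrays in red and sham arrays in grey. Krt18 and Krt19 deviate together (r = 0.76), and Krt8 and Krt20 do not (r = 0.09).

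Over the 12 group means, the genes whose profile was most like that of each keratin are given as a description, without a test. For Krt20 they were Eif1ax, Nup133, Hnrnpab and Rap2a (r = 0.98 to 0.99), and for Krt8 they were Egr3, Coro1c, Sphk1 and Bub3 (r = 0.98 each). For Krt18 they were Pde5a, Cpt1c, Epha3 and Tspyl3 (r = 0.98 to 0.99), and for Krt19 Dkk3, Arhgap30, Gramd1a and Gpr65 (r = 0.99 each). Krt7 had the least close neighbours, Cnih4, Abl2, Rnaseh2b and Rnf122, with r of 0.93 to 0.97. Among the keratins themselves, Krt8 and Krt20 had r = 0.97 over the group means and Krt18 and Krt19 had r = 0.96, while Krt7 had 0.59 to 0.65 with the other 4.

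The keratins of layered and other epithelia were mostly too low to test. Of 29 other keratin genes, 28 had a single-gene probe set and 7 passed the filter: Krt5, Krt6a, Krt10, Krt15, Krt23, Krt36 and Krt222. Of all genes with a single-gene probe set, 13174 of 18193 passed it. By limma 0 of these 7 keratins rose in FVB Nx kidneys at any day, and 0 were higher at an unadjusted p under 0.05. Beside this stand 24.8%, 7.35% and 25.9% of all genes called higher in FVB at days 2, 28 and 53, and 30%, 8.81% and 27.8% called lower. Krt10, a type I chain of differentiating epidermis, fell to means of 7.00 in FVB Nx kidneys at day 2, against 7.49 in sham (-0.49, adjusted p = 0.023), and to 6.69 at day 53, against 7.74 in sham (-1.05, SE 0.19, adjusted p = 6.8e-06). It also fell in B6 at day 2 (-0.58, adjusted p = 0.0102) and day 53 (-0.61, adjusted p = 0.0191). Krt15, a basal cell keratin that lay at the lowest value of the table in sham kidneys, rose in B6 at day 2 (1.12, adjusted p = 4.45e-05) and day 28 (1.02, adjusted p = 5.82e-04). Krt5, also of basal cells, rose in B6 at day 53 (0.58, adjusted p = 0.0284). In FVB at day 2, Krt36 and Krt222 fell by 0.24 and 0.36 on the log2 scale (adjusted p = 0.0056 and 0.00665), close to the lowest value of the table.

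Genes that anchor keratin filaments held both higher and lower members, as all genes did. Of 17 listed, 15 were tested, and 3, 1 and 6 were higher and 3, 2 and 4 lower in FVB at days 2, 28 and 53. In B6, 3, 1 and 1 were higher and 3, 2 and 2 lower. Beside these stand 24.8%, 7.35% and 25.9% of all genes higher and 30%, 8.81% and 27.8% lower in FVB, and 20.2%, 9.85% and 8.03% higher and 24.4%, 9.14% and 6.68% lower in B6. At day 2 the counts of 3 higher and 3 lower of 15 were no higher than those shares in either strain. Plec, the linker plectin that ties keratin filaments to hemidesmosomes, rose in all 6 comparisons, by 1.06, 0.41 and 1.38 in FVB and by 1.28, 0.68 and 0.54 in B6. Pkp4, a plakophilin-related protein of cell junctions, fell in all 6, most in FVB at day 2 (-0.70, SE 0.07, adjusted p = 1.63e-10). Dst, the linker dystonin, fell in all 6, most in FVB at day 53 (-0.82, SE 0.10, adjusted p = 4.3e-09).

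At day 53 more anchorage genes stood higher in FVB than in B6. Dsg2, the desmosomal cadherin of simple epithelia, rose by 0.94 in FVB at day 53 (SE 0.12, adjusted p = 1.7e-08), and its strain difference was 0.99 (adjusted p = 2.59e-05). In all, 8 of 15 anchorage genes had the larger effect in FVB at day 53 and 3 the smaller, beside 14.2% and 14.9% of all genes. The 8 were Dsg2, Itga6, Plec, Eppk1, Perp, Pkp2, Dsp and Dsc2, and the 3 were Evpl, Pkp4 and Dst. Dsp encodes desmoplakin, to which desmosomes bind keratin filaments, and its strain difference was 0.76 (SE 0.28, adjusted p = 0.0338). Between strains limma called 0 of 15 anchorage genes at days 2 and 28, where 2 and 0 had an unadjusted p under 0.05.

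Of 13 keratin-binding and regulating genes, 12 were tested, and 3, 1 and 4 were higher and 0, 0 and 1 lower in FVB at days 2, 28 and 53. In B6, 4 were higher and 1 lower at day 2. The shares of all genes called higher were 24.8%, 7.35% and 25.9% in FVB and 20.2% in B6 at day 2. Those called lower were 30%, 8.81% and 27.8% in FVB and 24.4% in B6 at day 2. The counts of 3 and 1 of 12 higher in FVB at days 2 and 28 were close to those shares. Csnk1a1, the casein kinase that acts on keratin filaments through its partner Fam83h, rose in all 3 FVB comparisons (0.71, 0.24 and 0.57) and in B6 at day 2 (0.63, adjusted p = 1.49e-09). Ywhaz, a 14-3-3 adaptor protein, rose at day 2 in both strains (0.28 in FVB and 0.22 in B6) and in FVB at day 53 (0.45). Hspb1, a small heat shock protein of the cytoskeleton, rose in FVB at day 53 (1.40, SE 0.29, adjusted p = 6.8e-05) and in B6 at day 2 (1.01, adjusted p = 0.00394). Casp6, a caspase known to cleave Krt18, fell in FVB at day 53 (-0.41, adjusted p = 1.3e-04), and Hspa8, a heat shock chaperone, fell in B6 at day 2 (-0.19, adjusted p = 0.0144). In B6 limma called 0 of the 12 at days 28 and 53, where 3 and 2 had an unadjusted p under 0.05. Of all genes, 9.85% and 8.03% were called higher there and 9.14% and 6.68% lower.

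Transcripts of other intermediate filaments changed as well. Of 11 other intermediate filament genes, 7 were tested, and 4, 2 and 5 were higher in FVB at days 2, 28 and 53 and 3 at each day in B6, and by limma 0 were lower, at an unadjusted p under 0.05 as well. Among all genes, 24.8%, 7.35% and 25.9% were called higher in FVB and 20.2%, 9.85% and 8.03% in B6. Called lower were 30%, 8.81% and 27.8% in FVB and 24.4%, 9.14% and 6.68% in B6. Vim, the vimentin of mesenchymal cells, which injured tubule cells are also known to make, rose in all 6 comparisons, by 2.38, 1.57 and 2.46 in FVB and by 1.87, 1.90 and 1.51 in B6. Lmna, the lamin of the nuclear envelope, rose in all 6 too, by 1.26, 0.43 and 1.35 in FVB and by 1.57, 0.52 and 0.51 in B6. At day 53 the strain difference was 0.96 for Vim (adjusted p = 0.0307), 0.84 for Lmna (adjusted p = 3.28e-04) and 1.04 for Nes, the filament nestin (adjusted p = 0.00789). Vim at day 28 was thus well above sham in FVB, at 12.84 ± 0.27 in Nx kidneys and 11.27 ± 0.22 in sham kidneys (SD, n = 4 each), in the same kidneys in which Krt20 lay near its plateau.

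**Figure D5:**
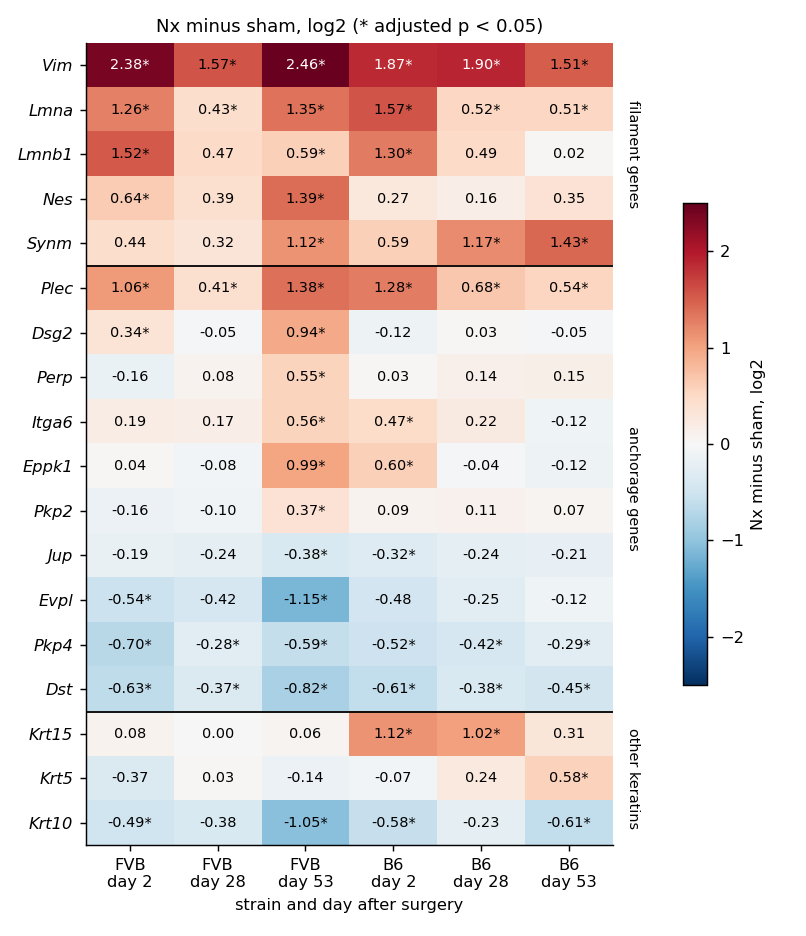
Effect of nephrectomy (Nx minus sham, log2, colour and number) on other filament genes, keratin anchorage genes and other keratins, by strain and day after surgery, with a star where the adjusted p was below 0.05. Vim, Lmna and Plec are higher and Pkp4 and Dst lower in all 6 comparisons, and Krt15 is higher in B6 at days 2 and 28.

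Markers of cells that make these keratins were read beside them. Of 8 tested genes of injured tubules, 5, 4 and 6 were higher in FVB at days 2, 28 and 53, and 6, 4 and 4 in B6. The numbers lower were 2, 1 and 0 in FVB and 1, 1 and 1 in B6, and the all-gene shares are those given with the keratin counts. Collecting duct principal cells, a normal site of Krt7 and Krt19, had 7 of 7 markers tested. By limma 0 of them rose in any of the 6 comparisons, at an unadjusted p under 0.05 as well. In FVB, 6, 0 and 6 of them were lower at days 2, 28 and 53, and in B6 4, 3 and 2 were lower. Of all genes, 30%, 8.81% and 27.8% were called lower in FVB and 24.4%, 9.14% and 6.68% in B6. Called higher were 24.8%, 7.35% and 25.9% in FVB and 20.2%, 9.85% and 8.03% in B6. The log2 of the summed level of the principal cell markers was 11.17 to 12.50 in Nx kidneys and 12.19 to 13.02 in sham kidneys. Aqp3, a water channel of those cells, fell by 0.96 on the log2 scale in FVB at day 53 (SE 0.16, adjusted p = 1.62e-06), where Krt7 rose. The part of these cells in the keratin effects was not tested.

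Urothelium was traced by 7 genes, of which 5 passed the filter, Upk2 and Grhl3 being too low. The log2 of their summed level was 4.96 to 8.04 in Nx kidneys and 5.39 to 6.77 in sham kidneys. Upk1b, a uroplakin of urothelial surface cells, rose in FVB at day 2 (1.76, SE 0.61, adjusted p = 0.0139) and in B6 at day 28 (2.45, SE 0.61, adjusted p = 0.00345), and no other urothelial gene passed in any of the 6 comparisons. With the urothelial mean of each array as a covariate, the SE of Krt19 at FVB day 53 was 0.283, against 0.383 without it, and the effect was 3.22. In B6 at day 28 the covariate left Krt18 at 0.42 (adjusted p = 0.141) and Krt20 at 0.55 (adjusted p = 0.0794), while Krt19 stayed at 1.41 (adjusted p = 7.77e-04) and Krt8 at 0.37 (adjusted p = 0.0455). For Krt20 the covariate gave 3.57 and 5.26 in FVB at days 2 and 53 and 4.98 in B6 at day 2. At B6 day 53, Nx mouse 4 had the highest urothelial mean of the group (4.92), and also its highest Krt18, Krt7, Krt19 and Krt20 values. In each other Nx group, the mouse with the highest urothelial mean did not have the highest Krt20 value. In FVB at day 2 that mouse (urothelial mean 4.52) had the lowest Krt20 value of its group, 6.27. In FVB at day 53 and B6 at day 28 that mouse had the highest Krt18, Krt7 and Krt19 values. With the covariate the B6 effects at day 53 were 0.55 for Krt18 (adjusted p = 0.0461), 1.26 for Krt19 (adjusted p = 0.00214), 0.44 for Krt20 (adjusted p = 0.176) and 0.40 for Krt8 (adjusted p = 0.0251). The part of urothelial cells in the keratin effects was not tested.

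Of 7 intestinal genes, the one that passed the filter was Lgals4, and Fabp2, Alpi, Cdh17, Muc2, Cdx1 and Cdx2 did not pass. Lgals4 rose at day 2 in FVB (0.52, adjusted p = 0.0244) and B6 (0.57, adjusted p = 0.0171) and fell in B6 at day 53 (-0.56, adjusted p = 0.0496). The log2 of the summed intestinal level was 5.70 to 7.82 in Nx kidneys and 5.32 to 7.80 in sham kidneys. Of 5 mesothelial genes 3 passed, and their summed level was 3.88 to 5.81 in Nx kidneys and 3.80 to 5.06 in sham kidneys. Msln rose in FVB at day 2 (0.62) and B6 at day 2 (0.54), Bnc1 in B6 at day 2 (1.20) and Upk3b in B6 at day 28 (1.81).

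Pancreatic acinar genes, 17 of 20 above the filter, had a log2 summed level of 10.84 to 18.92 in Nx kidneys and 11.67 to 15.40 in sham kidneys, and pancreatic ducts are known to make Krt7 and Krt19. The listed genes mark acini and not ducts, and the part of pancreatic cells in the keratin effects was not tested. On the 8 Nx arrays with a pancreatic mean at or below 5, Krt20 was 7.18 in FVB at day 2, 3.30 in FVB at day 28, and 8.28 and 8.04 in FVB at day 53. In B6 it was 8.81 at day 2, 3.45 at day 28, and 3.15 and 4.48 at day 53. Krt19 on these arrays was 7.05 in FVB at day 2, 5.37 at day 28, and 7.89 and 6.76 at day 53. In B6 Krt19 was 7.15 at day 2, 6.26 at day 28, and 5.48 and 6.98 at day 53. Krt7 was 10.43 in FVB at day 2, 10.35 at day 28, and 11.00 and 10.46 at day 53. In B6 Krt7 was 10.84 at day 2, 10.47 at day 28, and 10.48 and 10.59 at day 53. The pancreatic mean was 4.206 on the array with a Krt20 value of 8.28 and at most 3.328 on the other 7. Fitted without the 18 arrays that carry such transcripts, Krt20 was higher by 4.11 in FVB at day 2, by 5.13 in FVB at day 53 and by 5.73 in B6 at day 2, and its strain difference was 4.36 at day 53. That fit has 1 Nx array per strain at days 2 and 28 and 2 at day 53. In it, all 4 B6 calls of day 28 and the FVB call of Krt19 at day 28 were lost, with effects of 0.41 for Krt20, 0.57 for Krt18, 1.58 for Krt19 and 0.50 for Krt8 in B6 and 1.17 for Krt19 in FVB. The B6 calls of Krt18 and Krt8 at day 53 (0.95 and 0.41) and the strain calls of Krt19 and Krt7 at day 53 (1.23 and 0.60) were lost too, while Krt20 in B6 at day 53 passed (0.77, adjusted p = 0.0104). With the pancreatic mean as a covariate instead, the 5 calls of day 28 held, with adjusted p of 3.97e-04 to 0.0485.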

How the data were processed

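The deposited table holds log2 intensity values for 45101 Affymetrix probe sets on 48 arrays, 1 per mouse. The submitters' processing notes name MAS5 without a role, and background correction, summarisation and normalisation are not given in the sources used here. The values deposited by the authors run from 2.1979 to 16.1753 on a log2 scale, as judged from the values, with 32.1% at the lowest, and were used without scaling or pseudocount. Per the labels, each group is a strain, surgery and day with 4 mice. The labels do not say whether equal mouse numbers mark pairs. Deviations of same-numbered arrays correlated at -0.251 to 0.378, and those of differently numbered arrays at -0.577 to 0.469. The highest same-numbered value exceeded the highest other value in B6 at day 2 (0.281 against 0.177) and day 53 (0.225 against 0.151). The same held in FVB at day 2 (0.127 against 0.081). It did not hold at day 28 in FVB (0.378 against 0.469) or B6 (0.168 against 0.317). Pairing is thus not settled, and arrays were treated as unpaired.

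Probe sets above 2.277 (40th percentile) on at least 4 arrays were kept, and the brightest single-symbol set stood for each of 13174 genes. limma 3.58.1 in R 4.3.3 fitted 12 group means to 48 arrays (36 residual degrees of freedom, eBayes with an intensity trend), with 22 contrasts and two-sided Benjamini-Hochberg adjusted p-values at 0.05, and was tested on simulated data. Promoter sequences are RefSeq's (GRCm38.p6). The members, lists and motifs were chosen with earlier results of these data known. Up to 4 genes per list and comparison, those with the smallest adjusted p under 0.05, are named, and others named (Dsc2, Dsp, Pkp2, the markers among them) were chosen after their values were seen. Permutation tests used scipy 1.17.1 and numpy 2.4.6, run in Python 3.11.15, with tables in pandas 2.3.3 and plots in matplotlib 3.10.9. Alternatives were other scalings, filters, probe set rules, variance models and array subsets, a replicate block, 2 covariates and leaving out each mouse.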

Additional observations from a re-analysis of the deposited data

Results flagged for a closer look

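Of 60 groups of 4 values (5 keratins in 12 groups), 4 held a value far from the other 3 by Dixon's test at the 95% level, and chance gives about 1 in 20. Krt18 in FVB Nx kidneys at day 2 was 9.9744 in mouse 2, with the others at 10.2721 to 10.282. Krt18 in FVB sham kidneys at day 2 was 8.3592 in mouse 4, with the others at 7.9903 to 8.0424. Krt20 in FVB sham kidneys at day 53 was 2.9873 in mouse 3, with the others all at 3.0479, and Krt20 in B6 sham kidneys at day 2 was 3.0479 in mouse 2, with the others at 3.0887 to 3.095. Both Krt20 values lie on the plateau of recurring values.

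Of 15 strain differences of the surgery effect tested in limma, 5 passed. Of all genes, 2.14% were called lower at day 2 and 0.129% in either direction at day 28. At day 53, 14.2% were called higher and 14.9% lower. Krt20 at day 2 was lower in FVB than in B6 (-1.3352), and at day 53 it was higher (4.703). At day 53 Krt8 (1.1093), Krt7 (0.6981) and Krt19 (1.398) also had the larger effect in FVB.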

How the results depend on the processing

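Over the keratin effects, alternatives other than leaving out a mouse gave the direction and side of the threshold of the reported value 1376 times, a gained call 10 times and a lost call 44 times, and leaving out a mouse did so 1482, 9 and 69 times; no called effect changed sign. Krt20 in B6 at day 28 was 0.46 under quantile normalisation (adjusted p = 0.127), 0.55 with the urothelial mean as a covariate (adjusted p = 0.0794), 0.41 without arrays with pancreatic transcripts (adjusted p = 0.275) and 0.57 to 0.77 when 1 mouse was left out. Krt20 in B6 at day 53 passed with array weights (0.60, adjusted p = 0.014), with the pancreatic mean as a covariate (0.61, adjusted p = 0.0488) and without arrays with pancreatic transcripts (0.77, adjusted p = 0.0104), and was 0.25 to 0.71 when 1 mouse was left out. The Krt20 strain difference at day 2 was -1.34 with adjusted p = 0.0577 when only the arrays of the comparison were fitted, which leaves fewer residual degrees of freedom.

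The count of keratins past the threshold in FVB at day 28 was 0, against 1, under quantile normalisation, with no filter on low values and without arrays with pancreatic transcripts, 2 with the urothelial covariate, and 0 to 2 when 1 mouse was left out. Without the filter more probe sets enter the adjustment. For the FVB growth from day 28 to day 53 it was 3, against 5, with no filter and when only the arrays of the comparison were fitted, 2 without arrays with pancreatic transcripts, and 3 to 5 when 1 mouse was left out. In B6 at day 28 it was 0, against 4, without arrays with pancreatic transcripts and 2 with the urothelial covariate. Fitting the compared groups alone gave 1, against 3, in B6 at day 53, and 0, against 1, for the strain difference at day 2. Without arrays with pancreatic transcripts it was 2, against 4, for the strain difference at day 53 and for the FVB change from day 2 to day 28, and 1, against 2, for FVB day 53 against day 2. That setting leaves 1 or 2 Nx arrays a group, and a lone array is assumed to vary like the other groups; the cause of the other shifts was not tested.

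With mouse number as a replicate block, Krt7 at day 53 against day 2 in FVB was 0.51 with adjusted p = 0.0499 (0.0626 without the block), and no other keratin call changed. FVB day 53 groups share no mouse number. Probe sets at the plateau of recurring values, such as Krt20 in sham kidneys, limit how small a level can be read, and 4 arrays a group limit precision.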
